A study of Mus musculus with 5 samples.

Results

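The amino acid transporter families were followed in adipocytes differentiated from mouse 3T3-L1 preadipocytes that had met myeloma cells beforehand. A gene belonged to the set when its symbol placed it in solute carrier family *Slc1*, *Slc3*, *Slc6*, *Slc7*, *Slc36*, *Slc38* or *Slc43*, and 62 of the 19505 genes named on the arrays did. Of these, 61 encode transporters or their heavy chains, and the other one, *Slc7a6os*, is a gene on the opposite strand beside *Slc7a6* that was kept out of the family counts. Each of the 62 genes was read by 1 probe set. The 3 MM-3T3-L1 samples were 3T3-L1 preadipocytes that shared RPMI medium with cells of the human myeloma line MM.1S across a 0.4 µm transwell membrane for 48 h, after which the myeloma cells were taken away and the preadipocytes were washed. The 2 Control samples spent the same 48 h in that medium alone. Both groups, which carry no engineered allele, had 4 days of basal medium before differentiation. A cocktail of 0.5 mM IBMX, 1 µM dexamethasone and 5 µg/mL insulin was then given for 4 days. Insulin followed for 2 days and basal medium for 1 day, and the cells were collected as mature adipocytes on day 7 of differentiation. 3T3-L1 is a single established cell line, no label tells if replicates came from separate cultures, and p-values therefore cover the spread between these arrays and nothing wider.

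Amino acid transporters decide which amino acids a cell can take up, release or move out of its lysosomes. *Slc1* and *Slc6* proteins are driven by the sodium gradient, and *Slc38* proteins mostly carry glutamine and other small neutral amino acids. Some *Slc36* proteins run on protons, and some *Slc43* proteins, though not all, are facilitated carriers of large neutral amino acids. Many *Slc7* light chains reach the membrane only when bound to an *Slc3* heavy chain. When amino acids run short, the transcription factor ATF4 raises many of these genes together with enzymes that make amino acids, while ample lysosomal amino acids keep the growth kinase complex mTORC1 active.

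One DNA element through which ATF4 and C/EBP proteins act together, the C/EBP-ATF response element, was looked for in the promoters of the members. The 2 genes shown here were picked after the search, because both carry it and had log2 fold changes of opposite sign. The letters searched were TGATGNAA on both strands, in the 300 bases from 250 before to 50 after each RefSeq start site (build GRCm38.p6). *Slc1a4* encodes ASCT1, a carrier of alanine, serine and cysteine, and *Slc7a11* encodes xCT, which brings in cystine in exchange for glutamate. The capitals mark the matches. The *Slc1a4* window is chr11:20332664-20332963 and the *Slc7a11* window is chr3:50443564-50443863, both on the minus strand and written 5′ to 3′.
Slc1a4: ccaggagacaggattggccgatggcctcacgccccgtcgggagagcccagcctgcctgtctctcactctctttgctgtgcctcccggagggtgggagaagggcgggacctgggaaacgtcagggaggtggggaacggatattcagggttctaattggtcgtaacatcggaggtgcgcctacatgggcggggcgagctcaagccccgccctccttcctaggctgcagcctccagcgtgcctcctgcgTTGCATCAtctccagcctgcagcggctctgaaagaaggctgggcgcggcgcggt
Slc7a11: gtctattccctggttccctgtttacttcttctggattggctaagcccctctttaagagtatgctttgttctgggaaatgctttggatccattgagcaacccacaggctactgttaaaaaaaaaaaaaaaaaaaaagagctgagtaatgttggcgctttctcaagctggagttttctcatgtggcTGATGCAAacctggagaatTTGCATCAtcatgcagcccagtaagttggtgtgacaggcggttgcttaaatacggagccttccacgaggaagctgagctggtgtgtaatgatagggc
The match in *Slc1a4* starts 4 bases before the start site, and those in *Slc7a11* start 66 and 47 bases before it. Of 44 member genes with a window in the table, 4 held the element in at least 1 window, the others being *Slc6a21* and *Slc7a7*. By window this was 5 of 65 (7.69%), against 1304 of all 32851 windows (3.97%), a description that includes the 2 genes picked for carrying it. A second element, the antioxidant response element TGACNNNGC on both strands, was in 10 of the 65 member windows (15.4%) and in 12.4% of all windows, and *Slc7a11* had no match to it in this window. Windows of 1 gene can overlap, so the window counts are not independent. Those of *Slc7a7* share a match to the first element, and those of *Slc7a6* share a match to the second. These are matches of letters and say nothing of binding.

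Values are log2 signals as the authors normalized them. A two-sided moderated test (limma) was run on every probe set, and a gene was called higher or lower in MM-3T3-L1s when its unadjusted p was 0.05 or less and its fold change was above 1.5, the thresholds of the study's methods. The background level was a log2 signal of 3.585, below which 95% of 1452 odorant, pheromone and taste receptor genes lay. Array medians were 4.48 to 4.53 in MM-3T3-L1s and 4.48 to 4.52 in controls, and any pair of arrays correlated with Pearson's r of 0.985 to 0.9935 across probe sets. Adipocyte markers stood well above background in both groups, with 13 of 14 above it and a mean log2 signal of 9.33 to 9.42 in MM-3T3-L1s and 9.28 to 9.44 in controls. Markers of preadipocytes and fibroblasts averaged 8.98 to 9.05 in MM-3T3-L1s and 9.20 to 9.24 in controls. Of 11 plasma and B cell markers, 3 were above background, and the list averaged 3.70 to 3.78 in MM-3T3-L1s and 3.59 to 3.65 in controls. For macrophage markers the ranges were 4.04 to 4.10 in MM-3T3-L1s and 3.82 to 3.88 in controls, with 3 of 7 above background. In bulk RNA, fewer cells of a type and less RNA per cell cannot be told apart.

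Of the 62 genes, 39 had a mean above the background level and 23 did not. *Slc38a6* and *Slc6a13* were called higher in MM-3T3-L1s, *Slc1a4* and *Slc38a4* were called lower, and 58 genes were neither. Over all 22206 probe sets 0.91% were called higher and 1.44% lower, and in both directions together the share was 6.45% of the set against 2.35% of all probe sets. A one-way ANOVA, the test named in the study's methods, was run here on the deposited values with the same thresholds. It called only *Slc38a6* higher (unadjusted p = 0.048, ANOVA) and *Slc1a4* lower (unadjusted p = 0.049, ANOVA), both close to the limit. Over all probe sets it called 0.468% higher and 0.811% lower. At an unadjusted p of 0.05 or less and any fold change, 6 genes were higher (9.68%) and 4 were lower (6.45%), against 3.48% and 4.11% of all probe sets. The 3 MM-3T3-L1 arrays lay above both Control arrays for 15 genes (24.2%) and below both for 6 genes (9.68%), against 11.9% and 12.2% of all probe sets. The median log2 fold change was 0.07 over the 62 genes and 0.01 over all probe sets. After Benjamini-Hochberg adjustment over all probe sets, limma left 0 genes at 0.05 or less, in the set or outside it, and the smallest adjusted p on the arrays was 0.166. With 3 arrays against 2, an exact permutation test of a single gene cannot go below a two-sided p of 0.1.

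**Figure D1:**
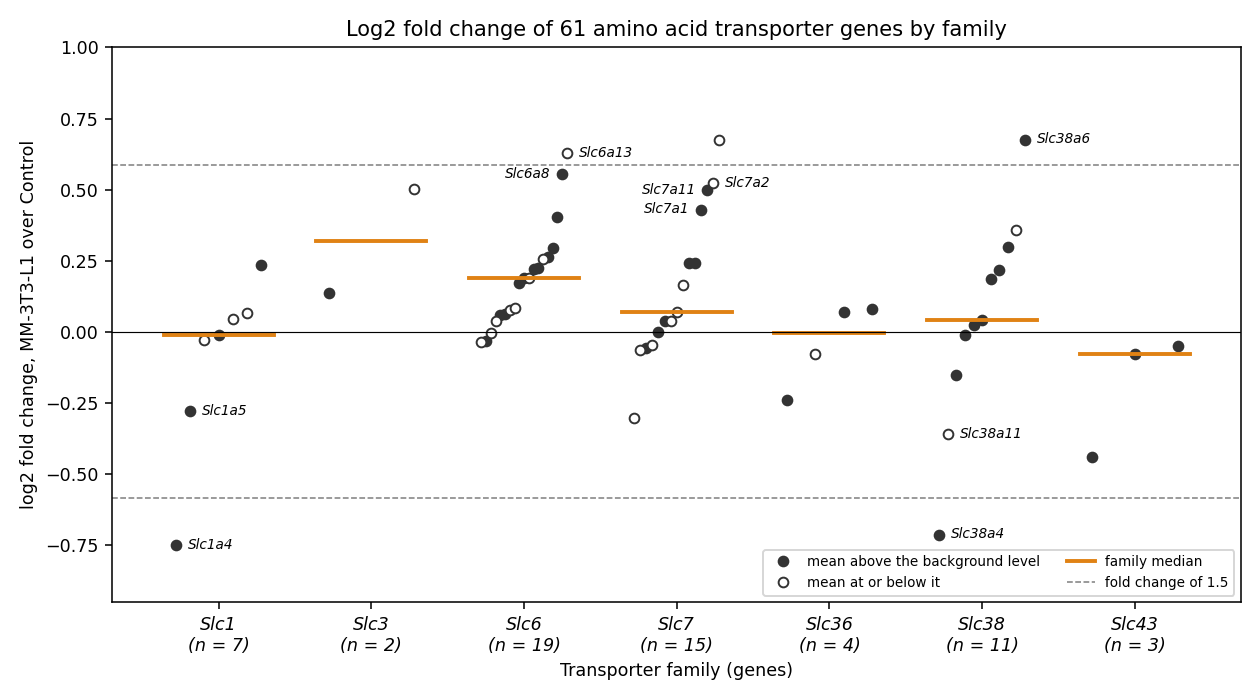
Log2 fold change of MM-3T3-L1 over Control (vertical axis) for the 61 transporter genes, grouped by family along the horizontal axis. Filled points have a mean above the background level, open points do not, orange bars are family medians, dashed lines mark a fold change of 1.5, and the 10 genes named in the plot reached an unadjusted p of 0.05 or less. *Slc38* spans -0.71 to 0.68, the *Slc6* genes lie mostly above 0, and all 3 *Slc43* genes lie below 0.

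Of the neutral amino acid exchangers of the *Slc1* family, *Slc1a4* was called lower in MM-3T3-L1s and *Slc1a5* was not called. *Slc1a4* had log2 signals of 5.40, 5.76 and 5.77 in the MM-3T3-L1 arrays, against 6.62 and 6.16 in the Control arrays. Every MM-3T3-L1 array was thus below both controls, and the gene fell by 0.75 on the log2 scale (SE 0.20, 95% interval -1.23 to -0.26), a 1.68-fold lower signal that reached the unadjusted threshold (adjusted p = 0.539, limma). Without Control replicate 1 the log2 fold change was -0.52 and the call was lost. *Slc1a5* encodes ASCT2, a major glutamine carrier of growing cells. It read 10.55, 10.45 and 10.61 in MM-3T3-L1s, against 10.78 and 10.84 in controls, again with the groups apart. Its log2 fold change of -0.28 (SE 0.11) also reached an unadjusted p of 0.05 (adjusted p = 0.652, limma), but the size was 1.21-fold, short of the fold change required for a call. It no longer reached that p after quantile normalization once more, after median centring, with the replicate number as a block, or without any one array other than MM-3T3-L1 replicate 3.

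The other *Slc1* genes encode glutamate and aspartate carriers. Of these, *Slc1a3*, whose product GLAST clears glutamate in glia, read 8.20, 8.00 and 7.85 in MM-3T3-L1s and 7.71 and 7.86 in controls, so that the groups overlapped (log2 fold change 0.23, SE 0.14, adjusted p = 0.695). *Slc1a1*, *Slc1a2* and *Slc1a6* were at or below the background level, and *Slc1a7* had a log2 fold change of -0.01. At p of 0.05 or less, 2 of the 7 genes were lower (28.6%) and 0 higher, against 4.11% and 3.48% of all probe sets. Over the 7 genes the median was -0.01. The sign of that median was not stable, since it was 0.19 without MM-3T3-L1 replicate 2, -0.16 without MM-3T3-L1 replicate 3, and -0.14 over the genes above background.

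The *Slc38* family, the system A and system N carriers of glutamine, alanine and related amino acids, held both a called increase and a called decrease. *Slc38a6* encodes SNAT6, whose substrates are less well known than those of its relatives. It read 8.07, 8.48 and 8.02 in MM-3T3-L1s, against 7.64 and 7.39 in controls. All MM-3T3-L1 arrays were above both controls, and the gene rose by a log2 fold change of 0.68 (SE 0.18, 95% interval 0.23 to 1.12), or 1.60-fold (adjusted p = 0.544, limma). The log2 fold change was 0.53 without MM-3T3-L1 replicate 2 and 0.55 without Control replicate 2, and the call was lost in both. The gene model of *Slc38a6* overlaps that of *Trmt5*, a tRNA methyltransferase gene.

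*Slc38a4* encodes SNAT4, a system A carrier that is abundant in liver. It read 5.43, 4.96 and 5.72 in MM-3T3-L1s, against 6.06 and 6.11 in controls. The controls were close together and the MM-3T3-L1 arrays were spread out below them. The gene fell by 0.71 on the log2 scale (SE 0.23, 95% interval -1.28 to -0.14), or 1.64-fold (adjusted p = 0.591, limma). It passed neither the ANOVA nor the fits without MM-3T3-L1 replicate 1 (-0.74), MM-3T3-L1 replicate 2 (-0.51), Control replicate 1 (-0.74) or Control replicate 2 (-0.69), and among the fits with 1 array left out the call held only without MM-3T3-L1 replicate 3.

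*Slc38a1*, *Slc38a2* and *Slc38a4* lie in a row on chromosome 15, and the first pair encode the widely expressed system A carriers SNAT1 and SNAT2. *Slc38a1* read 5.03, 4.82 and 4.93 in MM-3T3-L1s, against 4.73 and 4.53 in controls. Its arrays were apart, but the log2 fold change of 0.30 (SE 0.13) did not reach the threshold (adjusted p = 0.663). *Slc38a2*, the member best known for its induction by amino acid shortage, read 9.40, 9.43 and 9.31 in MM-3T3-L1s, against 9.36 and 9.43 in controls. Here the groups overlapped, with a log2 fold change of -0.01 and a 95% interval of -0.28 to 0.26. The 3 neighbours thus had log2 fold changes of 0.30, -0.01 and -0.71.

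*Slc38a5* (SNAT5), at or below background, had a log2 fold change of 0.36 with the arrays apart (adjusted p = 0.661), and *Slc38a11*, at or below background in every array, had one of -0.36, which reached an unadjusted p of 0.05 (adjusted p = 0.609) but did not without MM-3T3-L1 replicate 2 or 3 or Control replicate 1 or with the replicate block. *Slc38a7*, a lysosomal glutamine exporter, had a log2 fold change of 0.19 (adjusted p = 0.728), *Slc38a9*, the lysosomal arginine sensor, -0.15 (adjusted p = 0.742), and *Slc38a10* 0.02 (adjusted p = 0.968). Of the 11 *Slc38* genes, 9 were above background and the median was 0.04.

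**Figure D2:**
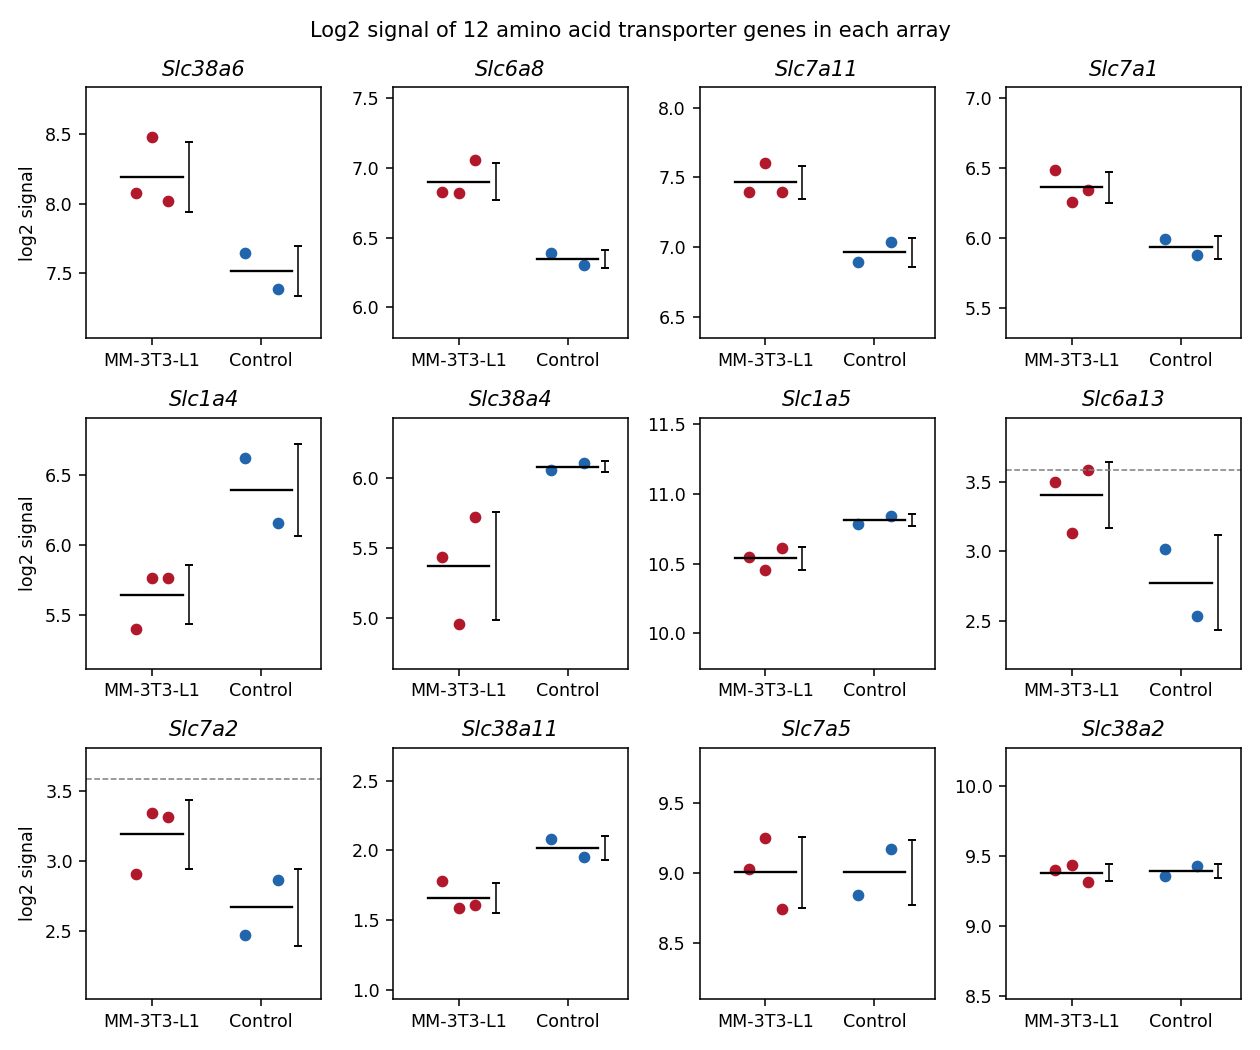
Log2 signal (vertical axes, each spanning the same range) of 12 transporter genes in each array of MM-3T3-L1 (red, 3 arrays) and Control (blue, 2 arrays). Points are arrays, horizontal bars are group means, error bars are SD, and the grey dashed line is the background level of 3.585 where it falls in the panel. The groups do not overlap in the first 10 panels, chosen for an unadjusted p of 0.05 or less, and overlap for *Slc7a5* and *Slc38a2*.

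Among the *Slc7* light chains and cationic carriers, no gene was called. *Slc7a11*, *Slc7a1* and *Slc7a2* were the 3 of 15 (20%) that reached an unadjusted p of 0.05. Each had a higher mean in MM-3T3-L1s by less than 1.5-fold. Over all probe sets 3.48% were higher and 4.11% lower at that p. *Slc7a11* read 7.40, 7.60 and 7.40 in MM-3T3-L1s, against 6.89 and 7.04 in controls. Every MM-3T3-L1 array exceeded both controls, by a mean log2 fold change of 0.50 (SE 0.13, 95% interval 0.19 to 0.81) that reached an unadjusted p of 0.05 (adjusted p = 0.538, limma). *Slc7a1* encodes CAT1, the main arginine and lysine carrier of most cells. It read 6.48, 6.26 and 6.34 in MM-3T3-L1s, against 5.99 and 5.87 in controls. The groups were apart and the log2 fold change was 0.43 (SE 0.12), which also reached it (adjusted p = 0.551, limma). *Slc7a2*, which encodes the related carrier CAT2, lay at or below background in all arrays and its log2 fold change was 0.52 ± 0.20 (SE), past the unadjusted threshold (adjusted p = 0.643). With each array left out in turn, the log2 fold change was 0.43 to 0.57 for *Slc7a11*, 0.37 to 0.49 for *Slc7a1* and 0.33 to 0.72 for *Slc7a2*. *Slc7a1* lost the unadjusted threshold without Control replicate 2. *Slc7a2* lost it without MM-3T3-L1 replicate 2 or 3, without Control replicate 1 (0.33), under the ANOVA and after quantile normalization once more.

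The LAT1 complex, which trades glutamine for leucine and other large neutral amino acids, showed no called difference in either chain. Its light chain gene *Slc7a5* read 9.03, 9.25 and 8.74 in MM-3T3-L1s, against 8.84 and 9.17 in controls. The groups overlapped, and the log2 fold change of 0.00 had a 95% interval of -0.47 to 0.47. The heavy chain gene *Slc3a2*, whose product 4F2hc also carries xCT and the y+L light chains, read 9.32, 9.48 and 9.30 in MM-3T3-L1s, against 9.14 and 9.32 in controls, which overlap at a log2 fold change of 0.14 (SE 0.12, 95% interval -0.17 to 0.44). *Slc7a10*, which encodes ASC-1 and is a surface marker of white adipocytes, had a log2 fold change of -0.06 (95% interval -0.46 to 0.35). The y+L light chain genes *Slc7a6* and *Slc7a7* had log2 fold changes of 0.04 and 0.24, and *Slc7a8*, which encodes LAT2 and was at or below background, had one of 0.04. *Slc7a14* had the highest value of the family, 0.67, which came from 1 array. It read 2.40, 3.65 and 2.19 in MM-3T3-L1s, against 2.25 and 1.90 in controls, with all but that 1 value under the background level (adjusted p = 0.705). Without MM-3T3-L1 replicate 2 the log2 fold change was 0.22. *Slc7a6os* had a log2 fold change of 0.21 with the arrays apart (adjusted p = 0.683). Over 15 *Slc7* genes the median was 0.07, and 7 were above background. At p of 0.05 or less 3 were higher (20%) and 0 lower, against 3.48% and 4.11% of all probe sets. *Slc3a1*, the heavy chain of the kidney cystine carrier, was at or below background with a log2 fold change of 0.50 (adjusted p = 0.683), which was 0.23 without MM-3T3-L1 replicate 3.

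The *Slc6* family, which takes up creatine, taurine, betaine, GABA, glycine, proline and monoamines, lay mostly above 0. Of its 19 genes, 11 of them above background, 16 had a log2 fold change above 0 (84.2%) and 3 below it, where 52.8% of all probe sets were above 0. The median was 0.19, and without Control replicate 2 it was 0.08. None of the 19 was called under the ANOVA. The arrays of MM-3T3-L1s lay above both controls for 6 (31.6%) and below both for 0, against 11.9% and 12.2% of all probe sets. *Slc6a8* encodes the creatine transporter, which feeds the creatine cycle of thermogenic fat. It read 6.83, 6.82 and 7.05 in MM-3T3-L1s, against 6.39 and 6.30 in controls. The groups were well apart, and its log2 fold change of 0.55 (SE 0.13, 95% interval 0.24 to 0.87) reached an unadjusted p of 0.05 (adjusted p = 0.499, limma), but the fold change of 1.47 stopped just short of 1.5. *Slc6a13* encodes a carrier of GABA and taurine. It read 3.50, 3.13 and 3.58 in MM-3T3-L1s, against 3.02 and 2.53 in controls. All these values are at or below the background level, so that the called log2 fold change of 0.63 (SE 0.21, adjusted p = 0.597) compares signals that cannot be told from background. This call was lost under the ANOVA, and without Control replicate 2 the log2 fold change was 0.39.

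*Slc6a12*, the betaine and GABA carrier next to *Slc6a13* on chromosome 6, read 3.86, 3.86 and 4.14 in MM-3T3-L1s, against 3.77 and 3.70 in controls, apart by a log2 fold change of 0.22 (adjusted p = 0.695). *Slc6a6*, which encodes the taurine transporter, read 9.78, 9.66 and 9.75 in MM-3T3-L1s, against 9.64 and 9.44 in controls. The arrays were apart by a small margin, and the log2 fold change of 0.19 (SE 0.12) did not reach the threshold (adjusted p = 0.697). *Slc6a9*, the glycine transporter gene, had a log2 fold change of 0.22 with overlapping groups. Grouped by substrate, all 8 carriers of GABA, monoamines, taurine, betaine and creatine had log2 fold changes above 0, from 0.04 to 0.63, with a median of 0.20. The share of all probe sets above 0 was 52.8%, and only 4 of the 8 were above background.

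*Slc36* and *Slc43* gave no call. *Slc36a1*, which encodes the lysosomal proton-driven carrier PAT1, had a log2 fold change of 0.08 (95% interval -0.36 to 0.52), *Slc36a2*, which encodes PAT2 and marks brown adipocytes, 0.07 (95% interval -0.33 to 0.47), and *Slc36a4*, the gene of PAT4, -0.24 (95% interval -0.72 to 0.24). In the *Slc43* family *Slc43a2*, which encodes LAT4, read 4.52, 3.80 and 3.76 in MM-3T3-L1s, against 4.52 and 4.41 in controls. MM-3T3-L1 replicate 1 sat with the controls and the other MM-3T3-L1 arrays lay below them, so that the log2 fold change of -0.44 (SE 0.25) did not reach the threshold (adjusted p = 0.689). Without that array it was -0.68 and was called lower. *Slc43a1* and *Slc43a3* had log2 fold changes of -0.08 and -0.05.

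**Figure D3:**
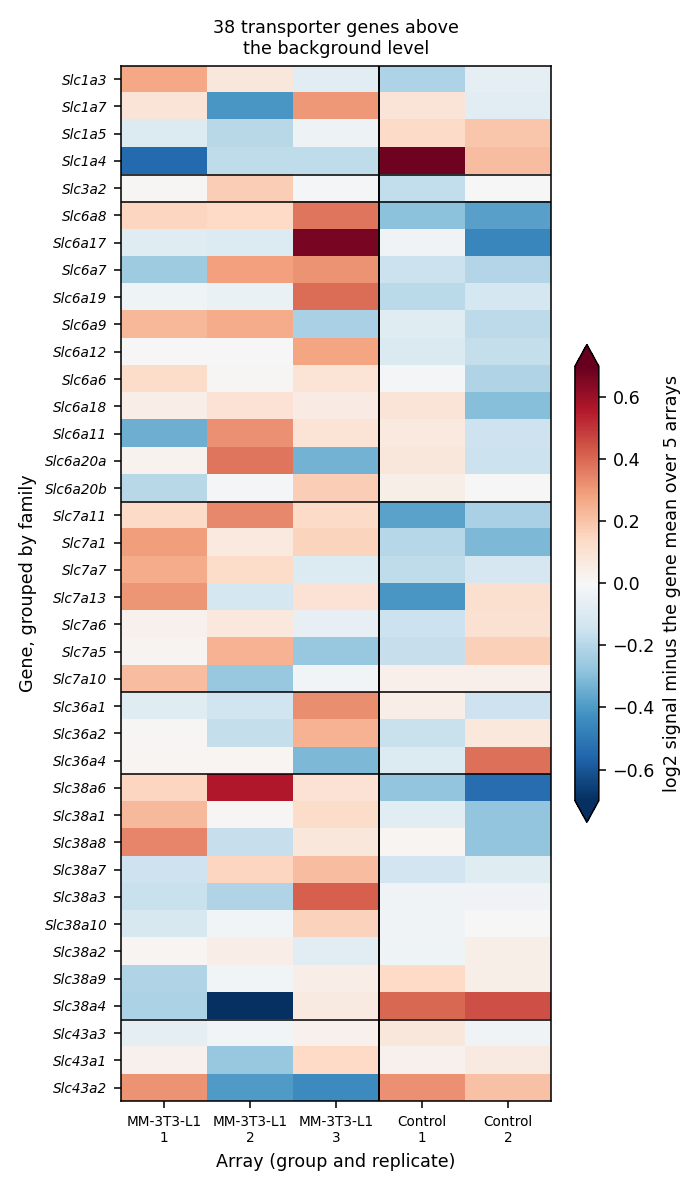
Log2 signal minus each gene's mean over the 5 arrays (colour, red above and blue below the mean, with the scale ending at -0.7 and 0.7) for the 38 transporter genes above the background level. Rows are genes ordered by family and then by log2 fold change, and columns are the arrays, with MM-3T3-L1 left of the black line and Control right of it. *Slc6a8*, *Slc7a11*, *Slc7a1* and *Slc38a6* are red in all 3 MM-3T3-L1 arrays and blue in both controls, and *Slc1a4* and *Slc1a5* are the reverse.

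By substrate, the genes lower in MM-3T3-L1s at p of 0.05 or less all belonged to the carriers of small neutral amino acids and glutamine or, for *Slc38a11*, to no class. In that class of 14 genes, 3 were lower (21.4%) and 0 higher at p of 0.05 or less, against 4.11% and 3.48% of all probe sets. Of the 14, 2 were called lower (14.3%, against 1.44% of all probe sets), 7 were above 0 and 7 below, and the median was 0.02. *Slc38a6*, called higher at a log2 fold change of 0.68, was also placed in no class and is not counted here. The 8 genes for cationic amino acids and cystine had a median of 0.34, with 7 above 0. Of these 8, 2 were higher (25%) and 0 lower at p of 0.05 or less, although only 3 were above background. Medians were 0.07 for 7 genes of anionic amino acid transport, 0.06 for 8 genes of large neutral amino acid transport and 0.06 for 9 lysosomal and endosomal carriers, with 0 called in each.

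**Figure D4:**
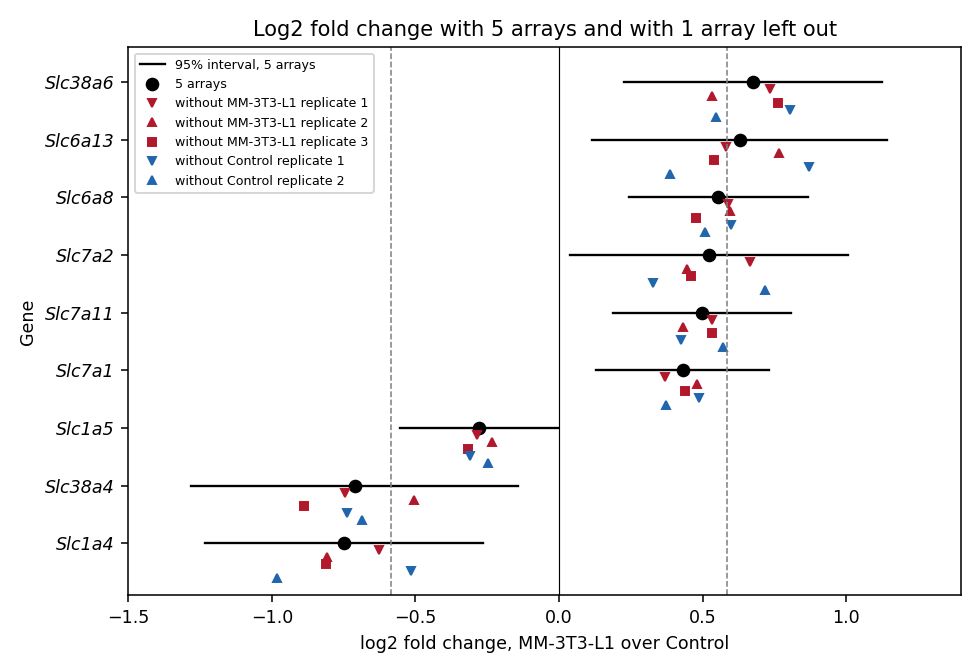
Log2 fold change of MM-3T3-L1 over Control (horizontal axis) for 9 genes (vertical axis) with all 5 arrays (black point, bar for the 95% interval of limma's fit) and with 1 array left out (coloured marks, red for an MM-3T3-L1 array and blue for a Control array). Dashed lines mark a fold change of 1.5. Every mark stays on the side of 0 of its black point, while those of *Slc1a4*, *Slc38a4*, *Slc38a6*, *Slc6a13*, *Slc6a8* and *Slc7a2* fall on both sides of a dashed line.

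Of 23 genes that respond to amino acid shortage through ATF4, 3 were higher (13%) and 1 was lower (4.35%) at p of 0.05 or less, against 3.48% and 4.11% of all probe sets. The 1 lower gene was the only one called (4.35%, against 1.44% of all probe sets called lower). Under the ANOVA 0 were called, and the median was 0.02. *Asns*, which encodes asparagine synthetase, read 10.39, 10.62 and 10.49 in MM-3T3-L1s, against 9.98 and 9.85 in controls. Its log2 fold change of 0.58 (SE 0.12) reached an unadjusted p of 0.05 (adjusted p = 0.467, limma), with a fold change of 1.495 just under the limit. *Mthfd2*, of mitochondrial folate metabolism, had a log2 fold change of 0.44 (adjusted p = 0.596) and *Cebpb*, a transcription factor of early adipogenesis, 0.37 (adjusted p = 0.626). Both reached that unadjusted p too, but not under the ANOVA or without MM-3T3-L1 replicate 1 or 2. *Cebpb* also missed it without MM-3T3-L1 replicate 3 and with the replicate block. Without Control replicate 1 the log2 fold change was 0.275 for *Mthfd2* and 0.220 for *Cebpb*. *Ddit4*, whose product REDD1 restrains mTORC1, was called lower at -0.69 (adjusted p = 0.652). It read 6.46, 5.98 and 6.26 in MM-3T3-L1s, against 7.33 and 6.51 in controls, and did not pass the ANOVA. The call was also lost after quantile normalization once more and without MM-3T3-L1 replicate 1, 2 or 3 or Control replicate 1, and without that Control array the log2 fold change was -0.28. *Atf4* itself had a log2 fold change of 0.12 (adjusted p = 0.774) and *Trib3*, a target of ATF4 and CHOP, one of 0.06 (adjusted p = 0.885).

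**Figure D5:**
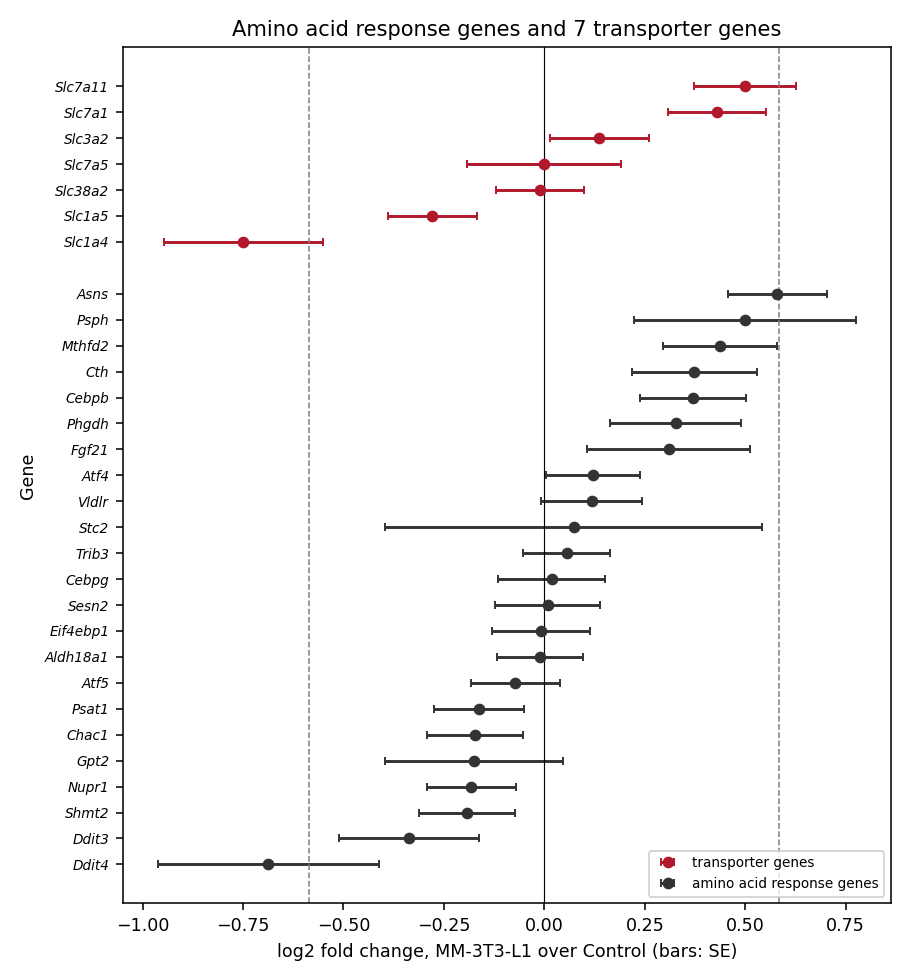
Log2 fold change of MM-3T3-L1 over Control (horizontal axis, bars are SE of limma's fit) for 7 transporter genes (red, upper block) and 23 amino acid response genes (black, lower block), each in order of its value. Dashed lines mark a fold change of 1.5. Both blocks spread to both sides of 0, with *Slc7a11*, *Slc7a1* and *Asns* at 0.43 to 0.58 and *Slc1a4* and *Ddit4* at -0.75 and -0.69.

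Enzymes of amino acid metabolism and partner proteins held a few of the clearer differences. *Cdo1*, which encodes cysteine dioxygenase, the step that turns cysteine toward taurine, read 6.67, 6.82 and 6.56 in MM-3T3-L1s, against 7.75 and 7.47 in controls. With the groups far apart it fell by 0.93 on the log2 scale (SE 0.14), or 1.90-fold (adjusted p = 0.337, limma). *Arg2*, mitochondrial arginase, had a log2 fold change of -0.46 (adjusted p = 0.548). Of 24 enzymes, *Cdo1* was called lower (4.17%), 0 were called higher and the median was -0.02. Over all probe sets 1.44% were called lower and 0.91% higher. *Slc9a3r1*, whose product NHERF1 is a scaffold for membrane carriers, read 6.33, 6.25 and 6.02 in MM-3T3-L1s, against 6.64 and 7.02 in controls. It was called lower at -0.63 (SE 0.17, adjusted p = 0.539), and the call was lost without MM-3T3-L1 replicate 3 (-0.54) or Control replicate 2 (-0.44), with the replicate block, and after quantile normalization once more. *Sgk1*, a kinase that keeps several carriers at the cell surface, had a log2 fold change of -0.42 (adjusted p = 0.584). Of 8 partners and regulators, 1 was called lower (12.5%, against 1.44% of all probe sets) and the median was -0.30.

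None of 25 amino acid transporters from other families was called. *Slc15a3*, a lysosomal peptide and histidine carrier, had a log2 fold change of 0.50 (adjusted p = 0.611), *Slc25a22*, a mitochondrial glutamate carrier, 0.48 (adjusted p = 0.632) and *Slc16a10*, the aromatic amino acid carrier TAT1 and at or below background, 0.52 (adjusted p = 0.571). These 3 were the ones higher (12%) at an unadjusted p of 0.05 or less, and 0 were lower. The shares of all probe sets were 3.48% and 4.11%. *Slc15a3* and *Slc25a22* did not reach that p under the ANOVA. For *Slc16a10* the log2 fold change was 0.463 without Control replicate 1 and 0.586 without Control replicate 2. Of 32 genes of lysosomal amino acid sensing by mTORC1, 0 were called. *Rheb*, the GTPase that activates mTORC1, had a log2 fold change of 0.32 (adjusted p = 0.651), while the sensing genes *Flcn*, *Sesn3* and *Itfg2* had values of -0.48 (adjusted p = 0.656), -0.35 (adjusted p = 0.651) and -0.33 (adjusted p = 0.621). These 4 genes were the ones that reached an unadjusted p of 0.05, and the median of the list was 0.04. They made 3.12% of the list higher and 9.38% lower, against 3.48% and 4.11% of all probe sets. *Flcn* and *Sesn3* did not reach that p under the ANOVA, and none of the 4 reached it without MM-3T3-L1 replicate 1.

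Markers of undifferentiated cells moved with the groups beside these results. Of 11 preadipocyte and fibroblast markers, 1 was higher (9.09%) and 4 were lower (36.4%) in MM-3T3-L1s at p of 0.05 or less. The shares of all probe sets were 3.48% and 4.11%. *Postn* was called lower at a log2 fold change of -0.85, and the 1 higher marker was *Pdgfrb* at 0.35, not called. Of 14 adipocyte markers, 2 were higher (14.3%) and 1 lower (7.14%) at that p. The 2 higher ones were *Fabp4* at 0.32 and *Dgat2* at 0.43, neither called. *Retn* was called lower at -0.63, a call lost under the ANOVA, with the replicate block and without any one array other than MM-3T3-L1 replicate 1. Of 7 macrophage markers *Cd14* was called higher at 0.83, but not without Control replicate 1 (0.57). The part of these shifts in the transporter values was not tested.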

How the data were processed

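RNA of 5 samples of 3T3-L1 adipocytes was measured on Clariom S Mouse arrays. The deposited log2 signals, 1 per probe set and array, were made by the authors, who imported the scans into Partek and normalized them by RMA (background correction, quantile normalization and summary of probes), so that differences common to a whole array are removed and low signals are compressed. Probe sets were named from the platform annotation, 19572 with 1 symbol and 2634 unnamed, and no column was left out. All 22206 probe sets were fitted with limma 3.58.1 (lmFit, eBayes) under R 4.3.3, with the group as the only term (3 residual and 2.79 prior degrees of freedom), which had been tested on simulated data. Calls required p, unadjusted, of at most 0.05 with a fold change over 1.5, and Benjamini-Hochberg adjustment ran across every probe set. The members and lists were chosen with earlier results of these data known, and *Slc38a6* and *Slc1a4* had been seen in the published tables. Named genes were those called, the smallest p in each family, members with a known role in adipocytes or nutrient sensing, and up to 4 genes per list, with exceptions chosen after their values were seen (such as *Slc7a14*, *Slc38a11*, *Slc38a5*, *Slc6a12*, *Atf4*, *Trib3* and the markers). List genes without a named probe set were not analysed here. Promoter windows and gene neighbours came from RefSeq (GRCm38.p6 for the windows). Precision is limited by the number of arrays. The alternatives were the one-way ANOVA, an intensity trend with a robust prior, a filter on dim probe sets, quantile normalization once more, median centring, the replicate number as a block, fold change limits of 1.3 and 2, the mean of all probe sets of a gene and leaving out each array.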

Additional observations from a re-analysis of the deposited data

How the results depend on the processing

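For 30 named genes, 416 values were recomputed under 9 alternatives and 5 fits that left out an array. Of these, 382 kept their call or, where uncalled, stayed uncalled and moved by less than the spread between arrays. Another 18 lost and 11 gained a call, and 5 stayed uncalled but moved by more than that spread. In all, 0 called values changed sign, while 23 uncalled values did. Members called higher numbered 1 under the ANOVA, 1 without dim probe sets, 1 with the replicate block, 6 at a fold change of 1.3 and 0 at a fold change of 2, and members called lower numbered 1 under the ANOVA and 0 at a fold change of 2. Leaving out 1 array gave 1 to 3 higher and 0 to 2 lower. Of 104 pathway genes outside the families, 0 were called higher and 3 lower with all arrays. After quantile normalization once more 1 was higher and 1 lower, with the replicate block 2 were higher, at a fold change of 1.3 there were 5 higher and 6 lower, and at a fold change of 2 there were 0 lower. Leaving out 1 array gave 0 to 3 higher and 1 to 3 lower. Without dim probe sets the median was 0.14 for *Slc3* and 0.24 for *Slc7*, and with 1 array left out it was 0.074 to 0.163 for *Slc7*. The cause of these moves was not tested, except that filters and left-out arrays leave fewer genes or arrays. The labels number the replicates of both groups but do not say whether a shared number marks a shared culture or day. The deviations of same-numbered arrays correlated at -0.027 and 0.060. With 2 controls, whose deviations from their mean mirror each other, these values cannot decide if the replicates were paired. They were treated as unpaired. The median of all probe sets was 0.014, and it was 0.008 after quantile normalization once more and 0.007 after median centring. Small changes of dim genes are limited by signal over background.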
